A study of Mus musculus with 4 samples.

Results

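The genes described here are the cyclins, the cyclin-dependent kinases (CDKs), the proteins that activate or restrain them, and the E2F transcription factors with their RB-family partners. They were chosen by name as a family of cell cycle regulators, with earlier results of these data known. All 41 named genes were among the 24873 genes in the table, and all 41 passed the filter on low values (a mean of at least 10 normalized counts). Mice of genotype Cdh5cre;Mgpflox/flox carried Cre recombinase under the promoter of Cdh5 (VE-cadherin), which is active in endothelial cells, and an Mgp gene flanked by the sites that Cre cuts. Mgp encodes matrix Gla protein, an inhibitor of bone morphogenetic proteins, and its endothelial deletion was used as a model of cerebral arteriovenous malformation. Tamoxifen was injected at 75 mg/kg on 5 consecutive days from 10 weeks of age, whereas control mice of the same genotype received none. Effects of tamoxifen itself and of the intended loss of Mgp therefore cannot be told apart. RNA was taken on day 9 from cerebral cells that the methods describe as CD31+CD45- and the sample labels as tdTomato+, in 2 control and 2 tamoxifen libraries, each from the pooled cells of 3 mice.

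In a dividing cell, D-type cyclins activate CDK4 and CDK6, and E-type cyclins activate CDK2, and these kinases phosphorylate the RB-family pocket proteins, which then release the activator E2Fs. The E2Fs switch on genes of DNA replication, among them cyclin E, cyclin A and the activator E2Fs themselves, while mitotic genes such as the B-type cyclins are transcribed later in the cycle by complexes that contain MuvB, B-Myb and FoxM1. Endothelial cells of the adult brain are mostly quiescent, a state in which the pocket proteins and p27 (Cdkn1b) hold this machinery in check.

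Cyclins A2, B1, B2, E1 and F, the partners and relatives of the S phase and mitotic kinases, were scarce in the control libraries and rose by 6.0 to 7.22 on the log2 scale under tamoxifen. The 3 pocket proteins and Cdkn1b, which hold quiescent cells in check, stayed within 1 of no difference on that scale, with Rbl2 (p130) at -0.67 and Cdkn1b at -0.76 the lowest of them, values that depend on the scaling of the libraries. The largest differences were those of Ccnb1 (cyclin B1), Ccne1 (cyclin E1), Ccnb2 (cyclin B2) and E2f8 (an atypical E2F), with log2 fold changes of 7.22, 6.78, 6.75 and 6.67. These 4 genes lie on the minus strand of GRCm39, Ccnb1 at chr13:100915153-100923116, Ccne1 at chr7:37797404-37808264, Ccnb2 at chr9:70314966-70328874 and E2f8 at chr7:48516176-48531452. Of the 41 genes, 24 were called higher under tamoxifen, with an adjusted p under 0.05 and a log2 fold change over 1, where 28.6% of all 20485 tested genes were called higher. A single gene, Cdkn2b (p15), was called lower, where 16.0% of all tested genes were called lower. The median log2 fold change was 1.64 over the 41 genes and 0.05 over all tested genes. By the adjusted p alone, 29 genes were higher and 3 were lower, against 33.4% and 25.5% of all tested genes. Both tamoxifen libraries lay above both control libraries for 33 genes (43.1% of all tested genes) and below them for 4 genes (39.2%). Log2 fold changes are on the log2(normalized count + 1) scale and come from limma across all tested genes, and a normalized count is a read count scaled by the factor of its library. In these bulk samples, a change in the number of cells of a type and a change in the RNA per cell cannot be told apart.

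**Figure D1:**
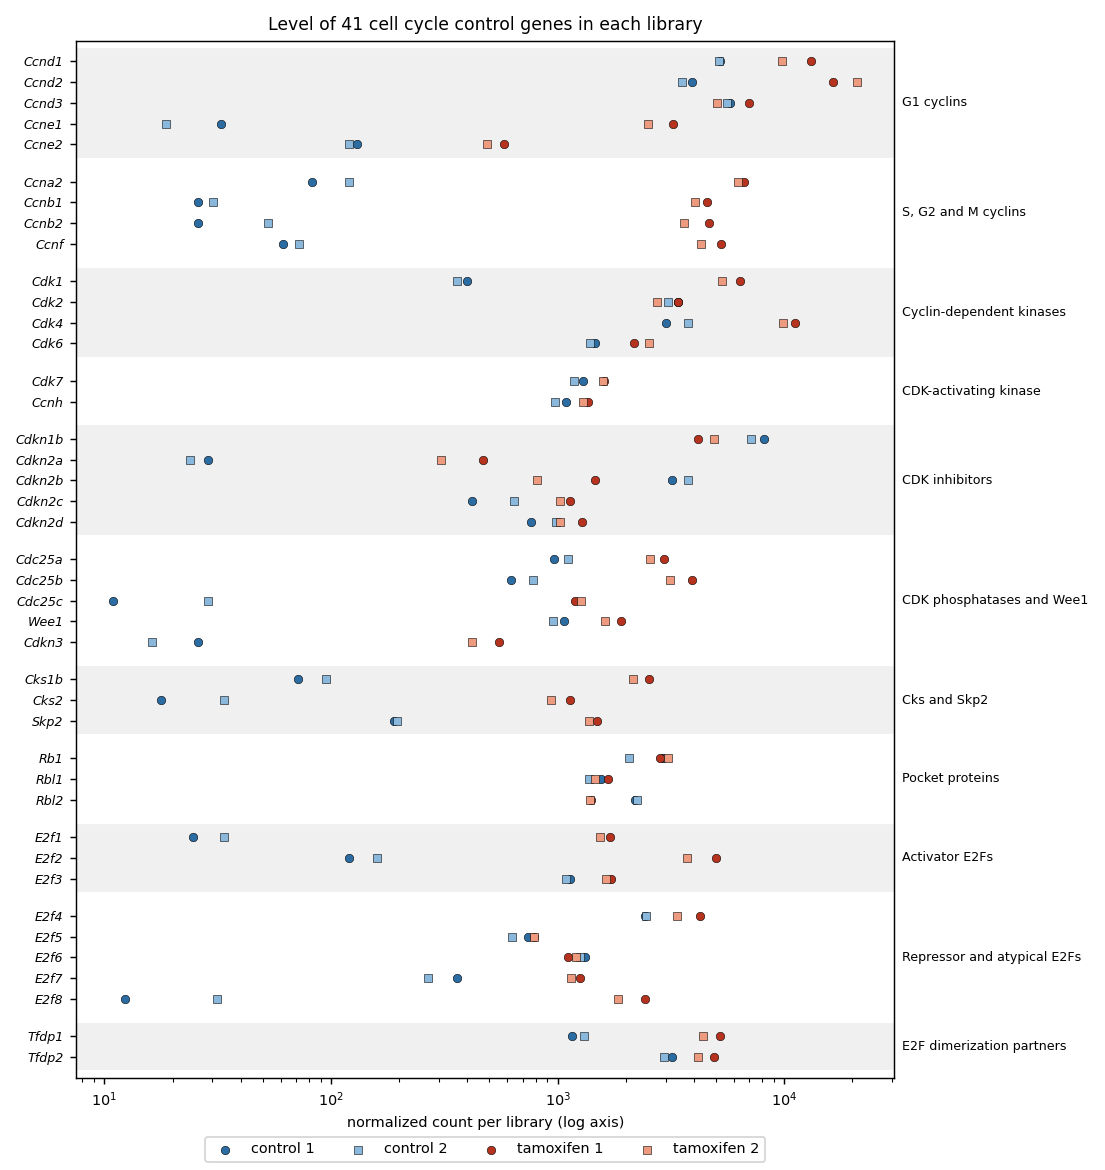
Normalized counts of the 41 genes on a log axis, 1 row per gene and 1 point per library (circles, replicate 1; squares, replicate 2; blue, control; red, tamoxifen), grouped by role. The red points lie far to the right of the blue ones for cyclins A, B, E1 and F, Cdk1, Cks1b, Cks2, Cdkn3, Cdc25c, E2f1, E2f2 and E2f8. They lie to the left of the blue ones for Cdkn1b, Cdkn2b and Rbl2, and slightly to the left for E2f6.

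The libraries held 35387438 to 49799321 reads on genes, and all members had reads in every library, the lowest being Cdc25c with 8 reads in control library 1. Mgp, the targeted gene, was measured at 1094 and 1352 normalized counts in control and 945 and 909 in tamoxifen, a difference that did not pass the test (limma log2 fold change -0.39, SE 0.18, adjusted p = 0.0986). Marker genes of several cell types moved with the groups. All 10 brain endothelial markers were called lower, and their summed level fell from 1063116 to 1141229 normalized counts in the control libraries to 85642 to 175949 in the tamoxifen libraries. All 8 pluripotent cell markers (sums of 69.9 to 114 in control and 40988 to 53440 in tamoxifen), 8 neutrophil and granulocyte precursor markers (233 to 301, and 82306 to 110569), 7 erythroblast markers (17427 to 35125, and 105280 to 163879), 6 astrocyte markers (27117 to 31486, and 134790 to 285980), 6 fibroblast markers (2257 to 3213, and 59759 to 69745) and 6 oligodendrocyte markers (642 to 678, and 7323 to 7979) were called higher. The same call was made for 6 of 6 measured B-cell precursor markers (sums of 42.5 to 52.6, and 3103 to 4292), of which Rag1 had 0 reads in both control libraries, for 6 of 7 neural progenitor markers (34295 to 36650, and 20723 to 25069, with Nes called lower), for 5 of 8 microglia markers (1427 to 2743, and 3560 to 3765) and for 1 of 7 pericyte and smooth muscle markers (24237 to 42046, and 28374 to 58807). Bone marrow precursors, pluripotent cells and neural progenitors also divide, and the part of such cells in the values below was not tested.

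The promoters were read because many members moved together. RefSeq windows (GRCm38.p6) from 250 bases before to 50 bases after a gene's start were at hand for 31 of the 41 genes, as 39 windows, and were searched on both strands for 3 kinds of word. These were an E2F word (TTTCCCGC, TTTCGCGC, TTTGCCGC or TTTGGCGC), a CHR word (TTTGAA or TTCGAA, the cell cycle genes homology region that MuvB complexes contact) and the CCAAT box bound by NF-Y, and no 2 matches of different kinds overlapped. An E2F word lay in 10 of the 39 windows (25.6%) and in 2.26% of all 32851 windows. By gene it lay in 9 of the 31, since the windows of Tfdp1 overlap and hold the same site. A CHR word lay in 12 windows (30.8%, against 19.2% of all windows) and a CCAAT box in 21 windows (53.8%, against 37.4%). Among the 19 genes called higher that had a window, 9 held a CHR word, and all 9 of them held a CCAAT box as well, and 6 held an E2F word. Among the other 12 genes with a window, 3 held a CHR word, 1 held both a CHR word and a CCAAT box, and 3 held an E2F word. By window, a CHR word lay in 9 of 24 windows of the genes called higher and in 3 of 15 of the others. E2f2 and Skp2 have 2 windows each, and the CHR word lay in only 1 of them. A match is a description of the letters and not a site of binding. The 150 bases before the start are shown for 5 genes called higher, of which Cdk1 holds all 3 kinds of word, Cks1b, Ccnf and E2f8 hold CHR words and CCAAT boxes, and Ccnb1 holds CCAAT boxes alone, and for Cdk2 and Rbl1, which were not called but hold an E2F word. Capitals mark the words, and a word on the opposite strand appears as its reverse complement.
Cdk1, chr10:69352913-69353062, minus strand: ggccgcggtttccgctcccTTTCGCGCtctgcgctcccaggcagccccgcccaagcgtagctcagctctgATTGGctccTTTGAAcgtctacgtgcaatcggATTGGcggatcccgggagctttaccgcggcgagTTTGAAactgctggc
Cks1b, chr3:89418292-89418441, minus strand: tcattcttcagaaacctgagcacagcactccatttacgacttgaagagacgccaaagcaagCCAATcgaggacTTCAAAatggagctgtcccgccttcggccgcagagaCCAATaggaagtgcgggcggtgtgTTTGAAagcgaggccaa
Ccnf, chr17:24251410-24251559, minus strand: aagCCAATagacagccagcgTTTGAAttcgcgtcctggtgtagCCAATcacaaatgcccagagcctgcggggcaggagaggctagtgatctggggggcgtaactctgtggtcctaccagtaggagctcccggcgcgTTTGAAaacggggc
E2f8, chr7:48881597-48881746, minus strand: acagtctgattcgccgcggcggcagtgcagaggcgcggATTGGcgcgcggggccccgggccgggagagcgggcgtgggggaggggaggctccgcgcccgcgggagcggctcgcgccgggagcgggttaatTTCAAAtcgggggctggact
Ccnb1, chr13:100786487-100786636, minus strand: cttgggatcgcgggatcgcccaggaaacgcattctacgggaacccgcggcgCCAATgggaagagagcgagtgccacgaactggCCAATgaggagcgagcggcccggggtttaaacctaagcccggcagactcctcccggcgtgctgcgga
Cdk2, chr10:128705052-128705201, minus strand: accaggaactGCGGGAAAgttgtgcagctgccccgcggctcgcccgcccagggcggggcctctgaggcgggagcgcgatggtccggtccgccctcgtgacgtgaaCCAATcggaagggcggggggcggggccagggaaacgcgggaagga
Rbl1, chr2:157204535-157204684, minus strand: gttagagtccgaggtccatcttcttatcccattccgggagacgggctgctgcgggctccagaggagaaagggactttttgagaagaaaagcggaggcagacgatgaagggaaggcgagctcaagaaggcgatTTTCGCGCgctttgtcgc

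Cdk1 held all 3 kinds of word, with an E2F word 131 bases before the start, CHR words at 71 and 15 bases and CCAAT boxes at 80 and 48 bases. Cks1b, Ccnf and E2f8 each held a CHR word within 20 bases before the start, at 17, 14 and 20 bases. Ccnb1, the gene with the largest difference, held only CCAAT boxes among the words searched, at 99 and 67 bases. Other forms of the CHR word were not searched. Cdk2 held an E2F word 140 bases before the start and Rbl1 one 18 bases before it. The 10 genes without a window were Ccnd1, Ccnd2, Ccne2, Ccna2, Ccnh, Cdc25c, Wee1, Rb1, E2f4 and E2f5.

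**Figure D2:**
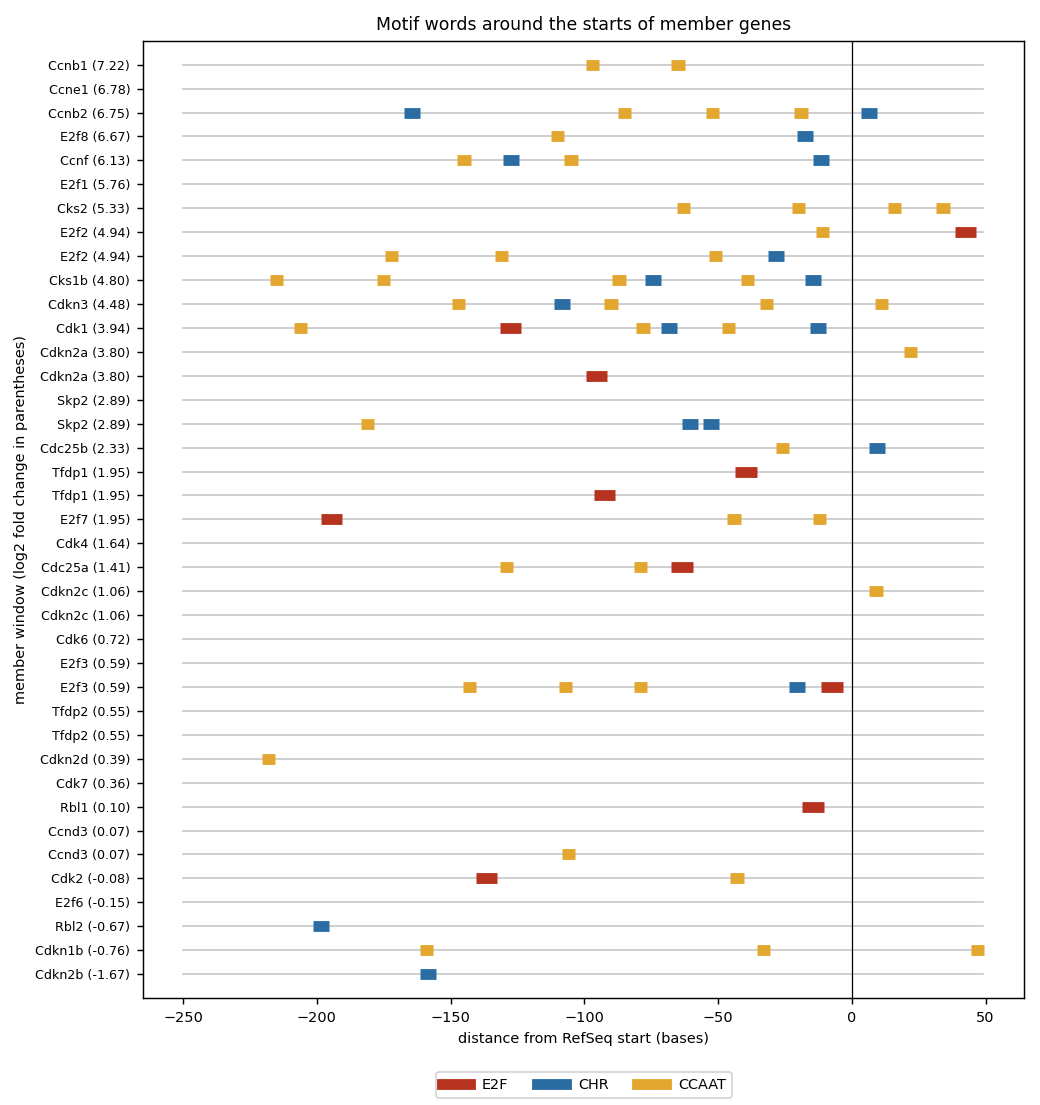
Position of E2F (red), CHR (blue) and CCAAT (yellow) words in the 39 RefSeq windows of 31 genes, 1 line per window, in order of log2 fold change (in parentheses), with the distance from the start in bases on the x axis. Of the 10 genes with both blue and yellow marks, 9 were called higher and lie in the upper part, and E2f3 is the other.

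Cyclins of the G1 phase differed by type. Ccne1, which with CDK2 drives entry into S phase, was measured at 32.9 and 18.8 normalized counts in control (24 and 15 reads) and at 3245 and 2507 in tamoxifen (2994 and 3487 reads). It rose with a log2 fold change of 6.78 (SE 0.34, adjusted p = 9.67e-06 in limma), and the groups were far apart. Ccne2, its paralog, had 130 and 120 normalized counts in control and 578 and 490 in tamoxifen, a log2 fold change of 2.08 (SE 0.27). The call for Ccne2 was lost when either tamoxifen library was left out. Per kilobase of transcript, Ccne1 made up 38.8% and 28.1% of the summed cyclin E level in control and 93.4% and 92.8% in tamoxifen, so that the more abundant of the 2 transcripts was Ccne2 in both control libraries and Ccne1 in both tamoxifen libraries.

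The D-type cyclins, which link growth signals to CDK4 and CDK6, were well expressed in the control libraries. Ccnd2 had 3915 and 3555 normalized counts in control and 16424 and 20966 in tamoxifen, and rose by 2.31 on the log2 scale (SE 0.18, limma adjusted p = 5.62e-05). Ccnd1, the D-type cyclin that rises as cells leave quiescence, had 5224 and 5178 in control and 13148 and 9819 in tamoxifen (log2 fold change 1.13, SE 0.19), and without tamoxifen library 1 its log2 fold change was 0.92 and the call was lost. Ccnd3 had 5750 and 5598 in control and 6968 and 5075 in tamoxifen, overlapping groups with a log2 fold change of 0.07 (SE 0.19, limma adjusted p = 0.775). With libraries rescaled to equal totals, the log2 fold change of Ccnd3 was 0.54 (limma adjusted p = 0.0256), under the size limit. Per kilobase, Ccnd3 was the most abundant D-type cyclin in both control libraries, with 58.8% and 59.0% of the summed level, and Ccnd2 the least, with 12.8% and 11.9%. In the tamoxifen libraries the 3 shares were closer, at 36.4% and 30.7% for Ccnd1, 27.3% and 39.4% for Ccnd2, and 36.3% and 29.9% for Ccnd3, and their order differed between the 2 libraries. Ccnd1 shares 2315 exon bases with LTO1 on the opposite strand. The libraries were made with a stranded kit, but the strand setting of the counting was not given in the sources used here.

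All 4 cyclins of S phase, G2 and mitosis rose, and their summed level was 196 and 275 normalized counts in control and 21112 and 18150 in tamoxifen. Ccnb1, the partner of CDK1 at mitotic entry, had 26.0 and 30.0 normalized counts in control (19 and 24 reads) and 4574 and 4057 in tamoxifen, a log2 fold change of 7.22 (SE 0.25, limma adjusted p = 3.37e-06). Ccnb2 had 26.0 and 52.6 in control and 4648 and 3602 in tamoxifen. The control libraries differed more from each other for Ccnb2 than for Ccnb1, and its log2 fold change of 6.75 moved to 6.26 without control library 1 and to 7.24 without control library 2. Ccna2 (cyclin A2), which acts from S phase to early mitosis, had 82.2 and 120 in control and 6627 and 6220 in tamoxifen (log2 fold change 6.0, SE 0.23). Ccnf (cyclin F), a substrate receptor of the SCF ubiquitin ligase that binds no CDK, had 61.6 and 72.6 in control and 5263 and 4272 in tamoxifen (log2 fold change 6.13, SE 0.22). No control value of these 4 genes came within an order of magnitude of a tamoxifen value. A pseudogene, Ccnb1-ps, had 0 reads in both control libraries and 26.0 and 26.6 normalized counts under tamoxifen. How reads that match both it and Ccnb1 were counted is not given in the sources used here.

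The kinases ranged from no measurable difference to a steep rise. Cdk1, the mitotic kinase, had 399 and 359 normalized counts in control and 6355 and 5319 in tamoxifen, and rose by 3.94 on the log2 scale (SE 0.17, limma adjusted p = 6.28e-06). Cdk4 had 3007 and 3769 in control and 11101 and 9917 in tamoxifen (log2 fold change 1.64, SE 0.18). In both cases the groups were separate. Cdk6 had 1462 and 1388 in control and 2180 and 2518 in tamoxifen, groups that did not overlap, with a log2 fold change of 0.72 (SE 0.16, limma adjusted p = 0.00592) that was under the size limit. Cdk2, the partner of cyclins E and A, had 3387 and 3069 in control and 3398 and 2737 in tamoxifen, overlapping groups with a log2 fold change of -0.08 (SE 0.17, limma adjusted p = 0.701). Its cyclin partners Ccna2 and Ccne1 rose by 6.0 and 6.78 on the log2 scale in the same libraries. Whether these transcripts and those of Cdk2 came from the same cells was not tested. Per kilobase, Cdk1 was 2.93% and 2.47% of the summed level of these 4 kinases in control and 17.2% and 16.5% in tamoxifen, and Cdk2 was 46.7% and 39.6% in control and 17.3% and 15.9% in tamoxifen. Cdk4 exceeded Cdk6 in every library, and the log2 ratio of their normalized counts was 1.04 and 1.44 in control and 2.35 and 1.98 in tamoxifen.

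The CDK-activating kinase, which phosphorylates the CDKs on their activation loop, was measured by its kinase Cdk7 and its cyclin Ccnh, and neither was called in limma, edgeR or DESeq2, nor had an unadjusted limma p under 0.05 (0 of 2 genes). Cdk7 had 1297 and 1187 normalized counts in control and 1601 and 1579 in tamoxifen, with a log2 fold change of 0.36 (SE 0.16). Ccnh had 1085 and 979 in control and 1368 and 1289 in tamoxifen, with a log2 fold change of 0.37 (SE 0.17). In both genes the tamoxifen libraries lay above the control libraries by less than 1 on the log2 scale. These values depend on the scaling. With libraries rescaled to equal totals, the log2 fold changes were 0.83 for Cdk7 and 0.84 for Ccnh, still under the size limit. The lack of a small p also depends on the fit. For both genes the lowest adjusted p over the 14 alternative fits was under 0.05. Both overlap genes on the other strand, with 1334 exon bases shared by Cdk7 and Ccdc125 and 1988 by Ccnh and Rasa1.

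**Figure D3:**
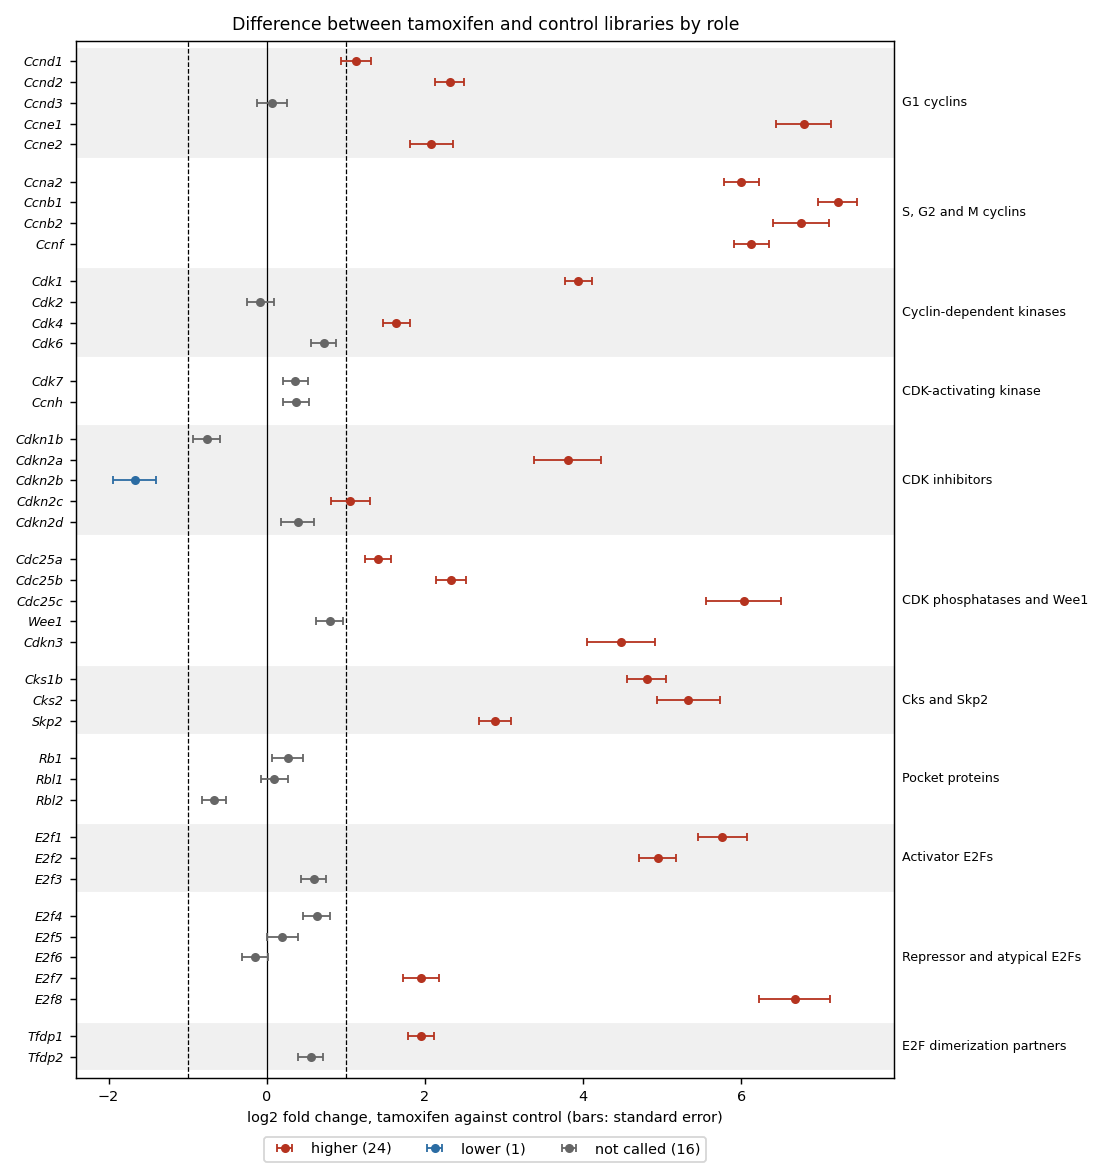
Log2 fold change of tamoxifen against control for the 41 genes, grouped by role, with bars for the standard error from limma and dashed lines at the size limit of 1 in each direction. The 24 genes called higher are red, Cdkn2b, called lower, is blue, and the 16 genes that were not called are grey and lie between -0.76 (Cdkn1b) and 0.80 (Wee1).

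The CDK inhibitors moved in both directions. Cdkn2b, which encodes p15 (INK4B), an inhibitor of CDK4 and CDK6, had 3191 and 3760 normalized counts in control and 1464 and 810 in tamoxifen, and its log2 fold change was -1.67 (SE 0.27, limma adjusted p = 0.00128). Cdkn2a, its neighbour, encodes p16 (INK4A) and, from another first exon, p19 (ARF), an inhibitor of MDM2, and the gene count does not separate them. It had 28.8 and 23.8 normalized counts in control and 467 and 306 in tamoxifen, a log2 fold change of 3.80 (SE 0.42, limma adjusted p = 0.000201). The 2 genes thus moved in opposite directions although they lie side by side on chromosome 4 of GRCm39 (Cdkn2a at chr4:89192708-89212890 and Cdkn2b at chr4:89223204-89229276, both on the minus strand). Cdkn1b, which encodes p27 (KIP1), the inhibitor of CDK2 in quiescent cells, had 8162 and 7157 in control and 4150 and 4899 in tamoxifen. Both tamoxifen values of Cdkn1b lay below both control values, with a log2 fold change of -0.76 (SE 0.17, limma adjusted p = 0.00575) that was under the size limit. With libraries rescaled to equal totals it was -0.29 (limma adjusted p = 0.170), and with quantile normalization -0.34 (limma adjusted p = 0.128).

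The other INK4 genes gave smaller differences. Cdkn2c (p18) had 418 and 641 normalized counts in control and 1139 and 1021 in tamoxifen, and its log2 fold change of 1.06 (SE 0.24, limma adjusted p = 0.00695) was the smallest among the calls. The call for Cdkn2c was lost without control library 1 and without either tamoxifen library. Cdkn2d (p19 INK4D) had 766 and 988 in control and 1277 and 1021 in tamoxifen, with a log2 fold change of 0.39 (SE 0.21, limma adjusted p = 0.139). Per kilobase, the summed INK4 level was 1855 and 2283 in control and 2331 and 1693 in tamoxifen, ranges that overlap, while its composition differed. Cdkn2b made up 63.2% and 60.5% of it in control and 23.1% and 17.6% in tamoxifen, and Cdkn2a 1.82% and 1.22% in control and 23.5% and 21.2% in tamoxifen. The sum and the Cdkn2a share take the whole gene count, which may include ARF transcripts that encode no INK4 inhibitor.

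**Figure D4:**
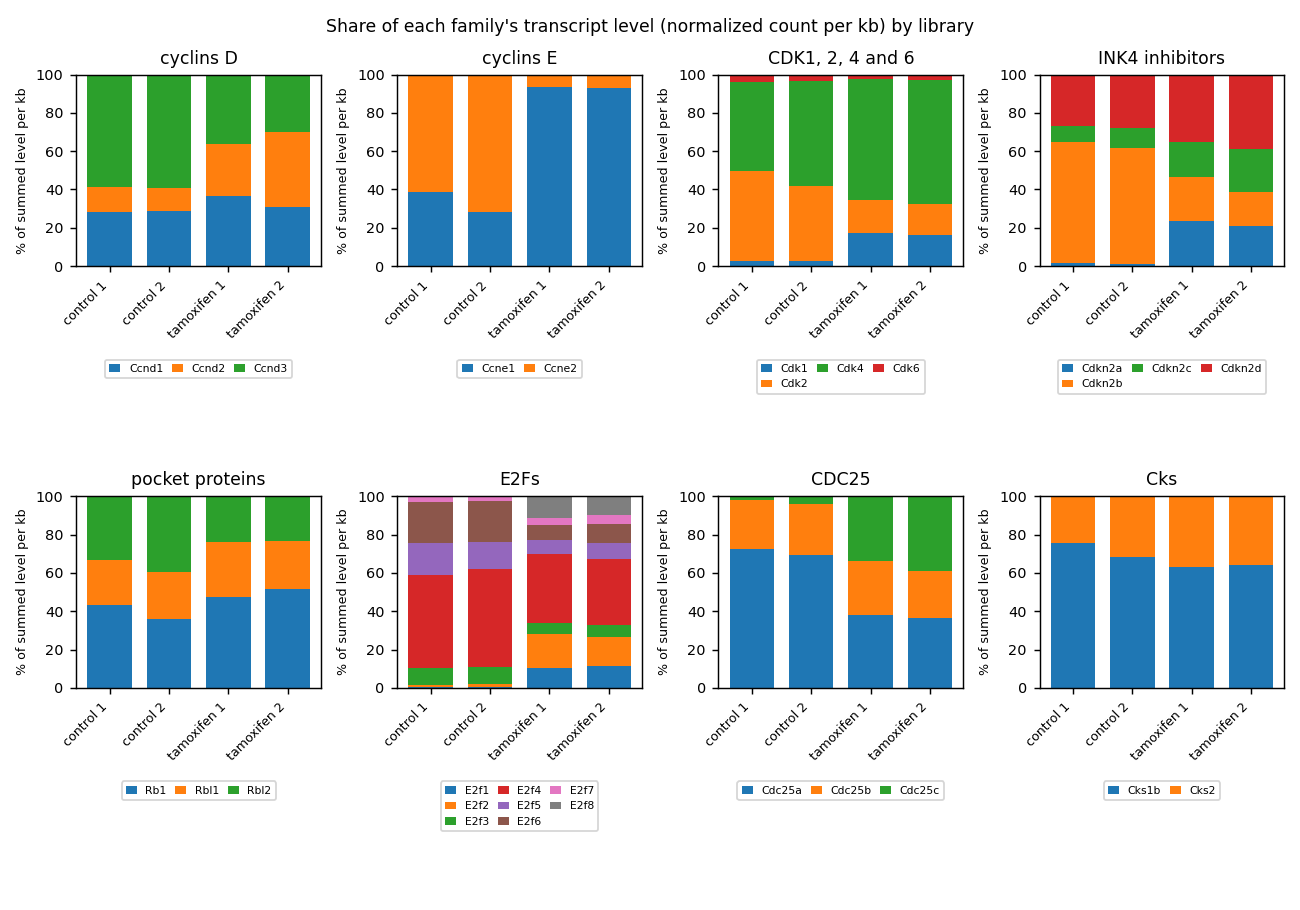
Share of each family's summed level per kilobase taken by each gene, 1 stacked bar per library, for 8 families. In both tamoxifen libraries Ccne1 exceeds Ccne2, Cdk1 and Cdk4 gain on Cdk2, Cdkn2a gains on Cdkn2b, Cdc25c gains on Cdc25a, and E2f1, E2f2 and E2f8 appear beside E2f4, while the share of Ccnd2 differs between those libraries (27.3% and 39.4%).

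The phosphatases that activate CDKs rose, the more steeply the lower their level in control. Cdc25c, an activator of CDK1, had 11 and 28.8 normalized counts in control (8 and 23 reads) and 1193 and 1270 in tamoxifen, a log2 fold change of 6.03 (SE 0.47, limma adjusted p = 5.42e-05), and its call was lost without tamoxifen library 2. Cdc25b rose by 2.33 on the log2 scale (SE 0.19), from 620 and 781 in control to 3914 and 3121 in tamoxifen. Cdc25a, which acts at the G1 to S transition, rose by 1.41 (SE 0.17), from 963 and 1110 to 2939 and 2557. The groups were separate for each of the 3 genes, and per kilobase Cdc25c went from 1.78% and 3.88% of the summed CDC25 level in control to 33.6% and 39% in tamoxifen. Wee1, the kinase that opposes CDC25, had 1071 and 956 in control and 1912 and 1617 in tamoxifen, with a log2 fold change of 0.80 (SE 0.17, limma adjusted p = 0.00538), under the size limit. Cdkn3, which encodes a phosphatase that removes the activating phosphate from CDK1 and CDK2, had 26.0 and 16.3 in control and 549 and 419 in tamoxifen and rose by 4.48 on the log2 scale (SE 0.43).

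Both Cks genes, small subunits that bind CDKs, rose together with Skp2, the F-box protein that with CKS1 targets p27 for degradation. Cks1b had 71.2 and 95.1 normalized counts in control and 2519 and 2144 in tamoxifen (log2 fold change 4.80, SE 0.25). Cks2 had 17.8 and 33.8 in control (13 and 27 reads) and 1131 and 933 in tamoxifen (log2 fold change 5.33, SE 0.40, limma adjusted p = 4.66e-05). Skp2 had 189 and 195 in control and 1485 and 1370 in tamoxifen (log2 fold change 2.89, SE 0.21). The groups were separate for all 3 genes, and the log2 ratio of Cks1b to Cks2 was 2.0 and 1.49 in control and 1.15 and 1.20 in tamoxifen.

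The pocket proteins, which bind and silence E2Fs, were not called (0 of 3 genes in limma, edgeR and DESeq2, with an unadjusted limma p under 0.05 for 1 of them). Rb1 had 2911 and 2073 normalized counts in control and 2825 and 3076 in tamoxifen (log2 fold change 0.26, SE 0.19, limma adjusted p = 0.272). Rbl1 (p107) had 1557 and 1374 in control and 1671 and 1462 in tamoxifen (log2 fold change 0.10, SE 0.17, limma adjusted p = 0.643). The groups overlapped for both. With libraries rescaled to equal totals, the log2 fold changes were 0.73 for Rb1 and 0.57 for Rbl1, still under the size limit. For both genes the lowest adjusted p over the 14 alternative fits was under 0.05. Rbl2 (p130), the pocket protein of the quiescence complex, had 2204 and 2232 in control and 1404 and 1386 in tamoxifen, separate groups with a log2 fold change of -0.67 (SE 0.15, limma adjusted p = 0.00617) that was under the size limit. With equal totals it was -0.20 (limma adjusted p = 0.235). The log2 ratio of Rbl1 to Rbl2 was -0.50 and -0.70 in control and 0.25 and 0.08 in tamoxifen. Rbl2 shares 4194 exon bases with Aktip on the opposite strand, which had 2196 and 2324 normalized counts in control and 1851 and 1672 in tamoxifen.

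Among the activator E2Fs, E2f1 and E2f2 rose from low levels and E2f3 differed little. E2f1 had 24.7 and 33.8 normalized counts in control (18 and 27 reads) and 1710 and 1531 in tamoxifen, a log2 fold change of 5.76 (SE 0.31, limma adjusted p = 1.22e-05). E2f2 had 121 and 160 in control and 4990 and 3712 in tamoxifen (log2 fold change 4.94, SE 0.23). E2f3 was the most abundant of the 3 per kilobase in control, with 1131 and 1090 normalized counts, and had 1721 and 1634 in tamoxifen, a log2 fold change of 0.59 (SE 0.16, limma adjusted p = 0.0131) under the size limit. In both tamoxifen libraries E2f2 was the highest per kilobase and E2f3 the lowest.

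The atypical E2Fs, which repress E2F targets without a dimerization partner, both rose. E2f8 had 12.3 and 31.3 normalized counts in control (9 and 25 reads) and 2426 and 1848 in tamoxifen (log2 fold change 6.67, SE 0.45, limma adjusted p = 2.97e-05), and its log2 fold change was 6.04 with control library 2 alone and 7.31 with control library 1 alone. E2f7 had 360 and 268 in control and 1262 and 1146 in tamoxifen (log2 fold change 1.95, SE 0.22), and its call was lost without either tamoxifen library. The repressor E2Fs that bind pocket proteins or polycomb complexes were expressed in every library with smaller differences. E2f4 had 2430 and 2463 in control and 4251 and 3377 in tamoxifen (log2 fold change 0.63, SE 0.17, limma adjusted p = 0.0132), under the size limit. E2f5 had 744 and 628 in control and 784 and 786 in tamoxifen (log2 fold change 0.20), and E2f6 had 1319 and 1254 in control and 1113 and 1210 in tamoxifen (log2 fold change -0.15), with adjusted p of 0.398 and 0.456 in limma. The groups did not overlap for either gene. E2f5 shares 1731 exon bases with Rbis on the opposite strand. E2f4 was the most abundant E2F per kilobase in all 4 libraries, with 48.7% and 51.1% of the summed E2F level in control and 36.1% and 34.0% in tamoxifen. E2f1, E2f2 and E2f8 together went from 1.49% and 2.23% in control to 39.2% and 36.6% in tamoxifen.

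The dimerization partners, without which most E2Fs do not bind DNA, were already expressed in control. Tfdp1 had 1163 and 1304 normalized counts in control and 5229 and 4362 in tamoxifen and rose by 1.95 on the log2 scale (SE 0.17, limma adjusted p = 7.21e-05). Tfdp2 had 3190 and 2959 in control and 4907 and 4151 in tamoxifen, separate groups with a log2 fold change of 0.55 (SE 0.16, limma adjusted p = 0.0184) under the size limit.

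The 2 tamoxifen libraries did not differ alike for all members. Library 1 exceeded library 2 for 34 of the 41 genes (82.9%), and for 58.0% of all tested genes. Ccnd2, Cdk6, Cdkn1b, Cdc25c, Rb1, E2f5 and E2f6 were the 7 genes with the higher value in library 2, and the ratio of library 1 to library 2 was 0.78 for Ccnd2 and 1.81 for Cdkn2b, its lowest and highest values. All endothelial, pluripotent, neutrophil, erythroblast and B-cell precursor markers were higher in library 1 as well, and all 6 astrocyte markers were higher in library 2, with summed levels of 134790 and 285980. The part of these markers' cells in the difference between the libraries was not tested.

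Another 61 genes were examined by list, among them 18 CDKs and cyclins that act in transcription or outside the cycle. Of the 61, 18 (29.5%) were called higher and 5 (8.20%) lower, where 28.6% and 16.0% of all tested genes were. Their median log2 fold change was 0.11. Over all 61 the count of higher calls was thus near the share among all genes, but the lists differed. The share called higher ranged from 5.56% of the transcriptional and other CDKs and cyclins to 75% of the mitotic entry and checkpoint genes. None of the 5 lower calls was made with libraries rescaled to equal totals. In the list of MuvB, B-Myb and FoxM1 genes, 4 of 8 rose (50%, against 28.6% of all tested genes), from Mybl2 (B-Myb, 5.17 on the log2 scale, SE 0.20) through Mybl1 (2.46) and Foxm1 (2.37) to Lin9 (1.03), while the lowest was the MuvB subunit Lin37 at -0.52 (limma adjusted p = 0.0569). Mybl2, which displaces the RB-family partner of MuvB, had 188 and 154 normalized counts in control and 6894 and 5506 in tamoxifen. Of the 8 mitotic entry and checkpoint genes, all kinases except the kinase cofactor Bora, 6 rose (75%, against 28.6% of all tested genes). Chek1 was the highest (5.09, SE 0.44, from 45.2 and 18.8 in control to 1102 and 964 in tamoxifen) and Atr the lowest (0.11). After Chek1 came Plk1 (4.93), Aurka (4.58), Mastl (3.92) and Bora (2.48). Pkmyt1, which like Wee1 phosphorylates CDK1 on inhibitory sites, rose by 2.12 (SE 0.26).

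The anaphase-promoting complex is the ubiquitin ligase that ends mitosis by degrading cyclin B. Of its 19 listed genes, 6 were called higher (31.6%, near the 28.6% of all tested genes) and 1 lower (5.26%, against 16.0%). The E2 enzyme Ube2c had the largest rise (6.48, SE 0.20), from 60.3 and 60.1 normalized counts in control to 5896 and 5068 in tamoxifen, and the activator Cdc20 (3.94), the inhibitor Fbxo5 (2.35), the E2 enzyme Ube2s (1.74), the core subunit Anapc15 (1.26) and the activator Fzr1 (1.08) were also called higher. The subunit Anapc16 was called lower (-1.12, SE 0.16), with 2541 and 3076 in control and 1308 and 1255 in tamoxifen, a call not made with equal totals. The other 12 core subunits were not called, with Cdc26 at -0.90 the lowest of them and Anapc13 at 0.40 the highest. Of the 8 SCF genes, the E2 enzyme Cdc34 alone was called higher (12.5% of the list; 1.37, SE 0.21), and Fbxw7, the receptor for cyclin E, was the lowest (-0.46, SE 0.15, limma adjusted p = 0.0299).

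Of the 18 CDKs and cyclins that act in transcription or outside the cycle, 4 were called lower (22.2%, against 16.0% of all tested genes) and 1 higher (5.56%, against 28.6%), and none of the 4 was called lower with equal totals. Ccnl2, a cyclin linked to splicing, was the lowest (-1.39, SE 0.18), with 18989 and 15950 normalized counts in control and 6822 and 6461 in tamoxifen, and Cdk17 (-1.24), Cdk19 (-1.24) and Ccnl1 (-1.07) were also called lower. Cdk18 was called higher against the direction of its list, with 12.3 and 28.8 in control and 460 and 369 in tamoxifen (4.37, SE 0.50). Mnat1, the assembly factor of the CDK-activating kinase, had a log2 fold change of 0.18 (SE 0.22). Leaving out a tamoxifen library cut the 18 calls to 10 in either case, without Lin9, Mybl1, Anapc15, Fzr1, Fbxo5, Cdc34, Chek1 and Cdk18, and cut the 5 lower calls to 2 without library 1 and to 1 without library 2.

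**Figure D5:**
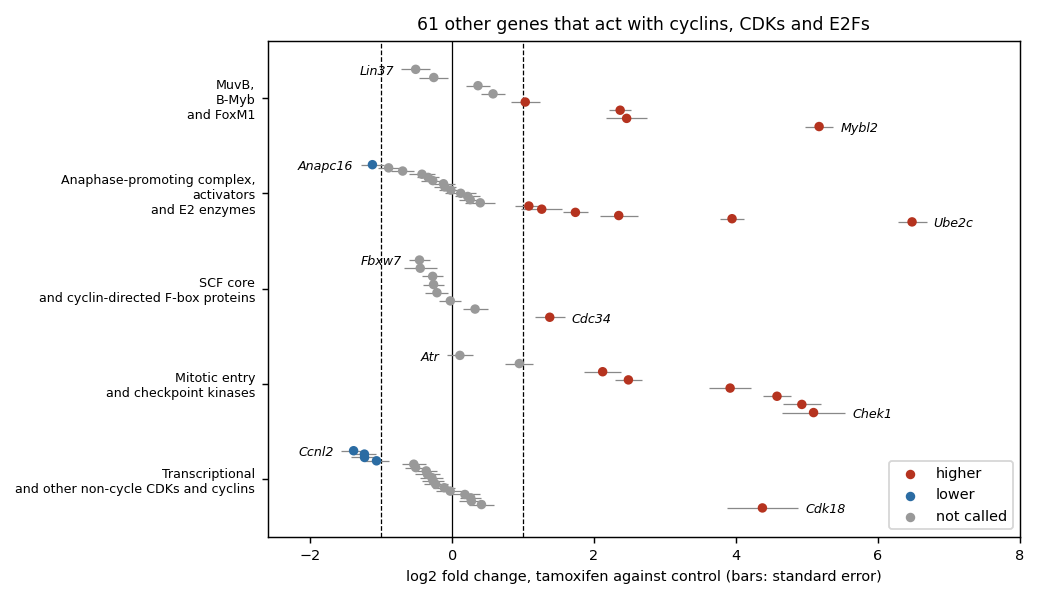
Log2 fold change of tamoxifen against control for 61 further genes in 5 lists, 1 point per gene with a bar for the standard error, red where called higher, blue where called lower and grey otherwise, with the highest and lowest gene of each list named. The MuvB, anaphase-promoting complex and mitotic entry and checkpoint lists hold 16 of the 18 red points, and 4 of the 5 blue points are in the list of transcriptional and other CDKs and cyclins.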

How the data were processed

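The authors aligned the reads with STAR 2.7.10a to GRCm39, counted them as they aligned, dropped genes of low count and normalized the rest with DESeq2 1.36.0. The annotation and strand setting of the counting are not given in the sources used here. What was deposited is a signal, namely each gene's read count divided by the size factor of its library, and whole reads were recovered from them (100% of values whole within 0.01 of a read). Columns lettered C were taken as control and those lettered A as tamoxifen. Members and lists were chosen with earlier results of these data known, and all members were to be named. Of the lists, the highest and lowest genes and calls against the majority were to be named, and other called genes were added after their values were seen.

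Differences were tested with limma 3.58.1 in R 4.3.3 (lmFit, eBayes with a trend) on log2(normalized count + 1), with a minimum mean of 10 normalized counts per gene and Benjamini-Hochberg adjustment over 20485 genes. A call required an adjusted p under 0.05 and a log2 fold change over 1 in size. The p-values measure the spread between pools of 3 mice, and an exact two-sided permutation test of 2 against 2 libraries cannot go below p = 0.333. Alternatives included count models on the recovered reads (edgeR 4.0.16, DESeq2 1.42.0). Gene positions, overlaps and the length of each canonical transcript came from GENCODE M39.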

Additional observations from a re-analysis of the deposited data

How the results depend on the processing

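The 24 higher calls and the 1 lower call among the 41 genes were the same in number with another pseudocount (0.5 or 5), without the filter or with one at a mean of 100, without the trend, and in edgeR and DESeq2, and 26 genes had the same call and direction under all 14 alternatives. Rescaling to equal totals, in which the tamoxifen total is otherwise 0.722 of the control total, moved the median log2 fold change of all genes to 0.52 and that of the 41 genes to 2.11, 1.59 above it as in the reported fit. It gave 29 higher calls, adding Cdk6, Wee1, E2f3, E2f4 and Tfdp2, and raised the share of higher calls among all calls from 64.1% to 79.7%. Quantile normalization moved that median to -0.23, the share to 45.6%, and the higher calls to 23, without Cdkn2c. Directions turned for Cdk2 (0.39 with equal totals, 0.12 with quantile normalization, and from -0.24 to 0.076 over the left-out libraries), E2f6 (0.32 with equal totals), E2f5 (-0.24 with quantile normalization), Ccnd3 (-0.16 to 0.30) and Rbl1 (-0.00071 to 0.19), the last 2 over the left-out libraries and lowest without tamoxifen library 1, none of them called, and beyond the scaling itself the cause was not tested. By the adjusted p alone, 3 of the 41 genes (Cdkn1b, Cdkn2b and Rbl2) and 10 of the 61 other genes were lower, but Cdkn1b and Rbl2 lost that with equal totals (-0.29 and -0.20, limma adjusted p = 0.170 and 0.235), Cdkn1b also without either tamoxifen library (0.0764 and 0.0565) and Rbl2 without tamoxifen library 2 (0.0553). With equal totals, 0 of the 61 were called lower (6 with an unadjusted limma p under 0.05, 5 in edgeR and 5 in DESeq2 without that rescaling). Leaving out each library gave 20 to 24 higher calls and 1 lower call among the 41 genes, and 10 to 18 higher and 1 to 4 lower among the 61. Over all genes it gave 2553 to 6163 higher calls and 1594 to 3537 lower calls, against 5867 and 3284. All-gene lower calls numbered 1838 with equal totals and 5509 with quantile normalization, and higher calls 3540 with the filter at 100.

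The replicate block gave 24 higher and 1 lower calls among the 41 genes and 18 higher and 5 lower among the 61. The labels link same-numbered libraries only by that number. The correlation of the deviations of same-numbered libraries from their group means was 0.025 over genes. That value cannot show whether same-numbered libraries were prepared together. With 2 libraries a group, a lone library was taken to vary like the other group when its partner was left out. Member windows holding an E2F word, a CHR word and a CCAAT box numbered 10, 12 and 21, and 9, 10 and 19 in windows from 150 bases before the start. Cdc25c and E2f8, with 8 and 9 reads in control library 1, had standard errors of 0.47 and 0.45, the largest among the 41 genes.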
